A study of Mus musculus with 3 samples.

Results

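The mitral layer was taken as the spots that the authors' annotation names Mitral Layer (M/T) in 3 coronal sections of mouse main olfactory bulb, and it held 95071 of the 2250425 spots under tissue. Each section is 1 sample of the strain C57BL/6J at an age of 12 weeks, with no treatment named, and the groups compared are regions of the same sections. Polyadenylated RNA was caught on barcoded arrays for high-density spatial transcriptomics, whose spots are smaller than most cells, and the deposited values are transcript counts per spot and gene. Every spot was joined to its region by pixel position, counts were summed per section, and the mitral layer was set against the external plexiform layer, the internal plexiform layer, the glomerular layer and the mean of all 8 other named regions. The remaining regions are the ependymal cell zone, the rostral migratory system, the olfactory nerve layer, and the granule cell layer in an external and an internal part. The labels do not tie a section to an animal. Section was a block in the gene tests, so their p-values measure how far differences between regions vary over these 3 sections. That spread may be technical. How the region borders were drawn, and whether expression was used for them, was not stated in the labels.

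The mitral layer is a thin sheet that holds the cell bodies of the mitral cells, the glutamatergic output neurons of the bulb. Their apical dendrites cross the external plexiform layer to receive olfactory nerve input in the glomeruli, their lateral dendrites stay in the external plexiform layer, and their axons leave through the internal plexiform layer towards olfactory cortex. Tufted cells are related output neurons whose cell bodies lie mainly in the external plexiform layer and around the glomeruli, so both layers share transcripts with the mitral layer. Inhibitory granule cells lie deeper and send dendrites outwards through the mitral layer, where some of them also have their cell bodies.

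The mitral layer held 35198, 27057 and 32816 spots in sections 1, 2 and 3, with 15765, 35318 and 32015 counts on 5688, 8374 and 8035 genes. It was narrow, with a median width of 10 to 11.9 array positions. Only 6.75%, 6.98% and 14.5% of its spots lay more than 5 positions from another region, so nearly the whole layer is close to a border. The whole sections had 344260, 650393 and 505305 counts, and a mitral layer sum from the shallowest, section 1, rests on few counts per gene. In that sum 211 of the 1996 tested genes had no count, against 33 and 37 in sections 2 and 3. The mitral layer sum of section 1 also correlated less with those of the other sections, and how much of this lies in its lower depth was not tested. Over those genes, which are not independent, log2(CPM + 10) in the mitral layer had a Pearson r of 0.67 for sections 2 and 3, but of 0.32 and 0.33 for section 1 with sections 2 and 3. CPM is a gene's count scaled to the same total in every sum. In sums over many cells, fewer cells of a type and less RNA per cell cannot be told apart.

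Spots of the mitral layer carried more counts than those of the other regions in sections 2 and 3 but hardly in section 1. Per 100 spots the mitral layer had 44.8, 131 and 97.6 counts in sections 1, 2 and 3, against a mean over the other 8 regions of 43.6, 95.5 and 72.0. It ranked 6 of 9 in section 1 and 1 of 9 in sections 2 and 3. The mean ratio of 1.24 did not pass a two-sided exact permutation test over the regions of each section (p = 0.187, 3 sections, 729 arrangements, smallest possible p 0.00137). The ratio was 1.36, 1.18 and 1.18 without sections 1, 2 and 3 in turn (exact permutation p = 0.0247, 0.481 and 0.444), and counted only over spots with at least 1 count it was 1.18 (exact permutation p = 0.0412).

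The 4 markers of mitral and tufted cells were all higher in each section's mitral layer than in its other 8 regions on average. Slc17a7 encodes a vesicular glutamate transporter and lies on chromosome 7 at 45163949 to 45176142 of mm10. Its level was 1459, 623 and 875 CPM in the mitral layer of sections 1, 2 and 3, against 683, 218 and 302 CPM in the other 8. Each section was higher in the mitral layer, by a log2 fold change of 1.62 ± 0.24 (SE; edgeR quasi-likelihood test, Benjamini-Hochberg adjusted p = 7.61e-08). Fitted fold changes against the other 8 are taken from the mean of the regions' log levels, so they differ from ratios of mean CPM. Rab3b, on chromosome 4 at 108879063 to 108943324, encodes a small GTPase of vesicle release. It had 507, 510 and 625 CPM in the mitral layer, against 213, 163 and 124 CPM in the other 8, and these values did not overlap (log2 fold change 2.04 ± 0.32, adjusted p = 1.36e-07). The share of all tested genes without overlap is not given here, so a lack of overlap only describes a gene's values. Cdhr1, on chromosome 14 at 37077857 to 37098347, encodes a cadherin family adhesion protein. It had 761, 651 and 781 CPM in the mitral layer and 484, 248 and 190 CPM in the other 8, again without overlap (log2 fold change 1.59 ± 0.27, adjusted p = 2.04e-06). Doc2g, on chromosome 19 at 4003313 to 4007005, encodes a C2 domain protein. It had 1459, 680 and 593 CPM in the mitral layer, against 520, 252 and 258 CPM in the other 8 (log2 fold change 1.71 ± 0.27, adjusted p = 1.36e-07). The markers were picked with earlier results of these data known, so their levels describe the layer and are no independent check of its label. The touching external plexiform layer carried much of the same signal.

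The promoters of these 4 genes are shown because the genes were high together in the layer; they run from 250 bases before to 50 bases after the start of each gene, from RefSeq on GRCm38.p6, and are written 5′ to 3′ on the strand of the gene. Capitals mark each GC box (GGGCGG) and each E-box (CAGNTG) found on either strand, and neighbouring or overlapping matches run together.
Slc17a7, chr7:45163671-45163970, plus strand: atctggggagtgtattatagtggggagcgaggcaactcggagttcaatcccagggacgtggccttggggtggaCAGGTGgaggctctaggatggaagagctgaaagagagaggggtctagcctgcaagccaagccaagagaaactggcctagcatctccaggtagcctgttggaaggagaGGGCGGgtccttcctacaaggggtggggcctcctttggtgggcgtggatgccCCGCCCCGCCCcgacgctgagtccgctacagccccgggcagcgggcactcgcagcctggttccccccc
Cdhr1, chr14:37098298-37098597, minus strand: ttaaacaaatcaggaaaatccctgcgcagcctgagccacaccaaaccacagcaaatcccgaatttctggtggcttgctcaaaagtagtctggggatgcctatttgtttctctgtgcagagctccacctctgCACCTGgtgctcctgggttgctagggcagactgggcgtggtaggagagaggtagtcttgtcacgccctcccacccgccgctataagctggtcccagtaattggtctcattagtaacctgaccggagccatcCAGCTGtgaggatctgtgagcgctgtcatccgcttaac
Doc2g, chr19:4003135-4003434, plus strand: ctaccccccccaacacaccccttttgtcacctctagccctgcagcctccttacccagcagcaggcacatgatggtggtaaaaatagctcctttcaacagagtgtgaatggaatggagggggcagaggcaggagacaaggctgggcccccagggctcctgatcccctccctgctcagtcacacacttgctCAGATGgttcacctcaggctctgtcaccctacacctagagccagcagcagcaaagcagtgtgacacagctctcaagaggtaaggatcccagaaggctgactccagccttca
Rab3b, chr4:108878820-108879119, plus strand: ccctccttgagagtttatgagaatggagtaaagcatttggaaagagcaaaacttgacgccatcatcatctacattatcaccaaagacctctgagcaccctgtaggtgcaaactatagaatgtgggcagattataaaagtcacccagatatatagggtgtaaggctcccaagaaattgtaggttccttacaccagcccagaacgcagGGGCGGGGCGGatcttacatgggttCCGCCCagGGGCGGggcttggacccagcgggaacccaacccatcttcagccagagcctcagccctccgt
The GC box occurred 3 times in the Slc17a7 window and 4 times in that of Rab3b, and was not found in those of Cdhr1 and Doc2g. The E-box occurred once in the Slc17a7 window, 2 times in that of Cdhr1 and once in that of Doc2g, and was not found in that of Rab3b. A T-box site (GGTGTGA), searched because mitral cells make T-box factors, was found in none of the 4 windows, on either strand. Of the 38 genes that rose in the mitral layer, 26 had a promoter in the table, and 65.4% of these held a GC box, against 66.7% of 1509 tested genes with a promoter and 35.9% of all 27025 promoters. The E-box was in 13 of the 26, in 41.5% of tested genes and in 51.1% of all promoters, and the T-box site in 3.85%, 3.05% and 3.96%. The shares of the 26 for the GC box and the T-box site were close to those of the tested genes.

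The order of the layers was not the same for all markers. By mean level, Slc17a7 ran 985 ± 429 CPM in the mitral layer, 916 ± 768 in the external plexiform layer, 566 ± 429 in the glomerular layer and 464 ± 304 in the internal plexiform layer (SD, n = 3 sections). All of these spreads overlap, and section 1 was the highest of the 3 in each layer. Doc2g reached 911 ± 477 CPM in the mitral layer and 940 ± 396 in the external plexiform layer, with 634 ± 299 in the glomerular layer and 179 ± 208 in the internal plexiform layer, so the mitral layer was not its highest region. Cdhr1 had 731 ± 69.9 CPM in the mitral layer, 582 ± 295 in the external plexiform layer, 581 ± 190 in the glomerular layer and 276 ± 290 in the internal plexiform layer. Rab3b had 547 ± 67.1 CPM in the mitral layer, 299 ± 90.7 in the external plexiform layer, 221 ± 164 in the internal plexiform layer and 191 ± 16.6 in the glomerular layer. None of the 4 differed between the mitral layer and the external plexiform layer by the edgeR test, with adjusted p of 0.902 for Slc17a7, 0.663 for Cdhr1, 0.720 for Doc2g and 0.151 for Rab3b.

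**Figure D1:**
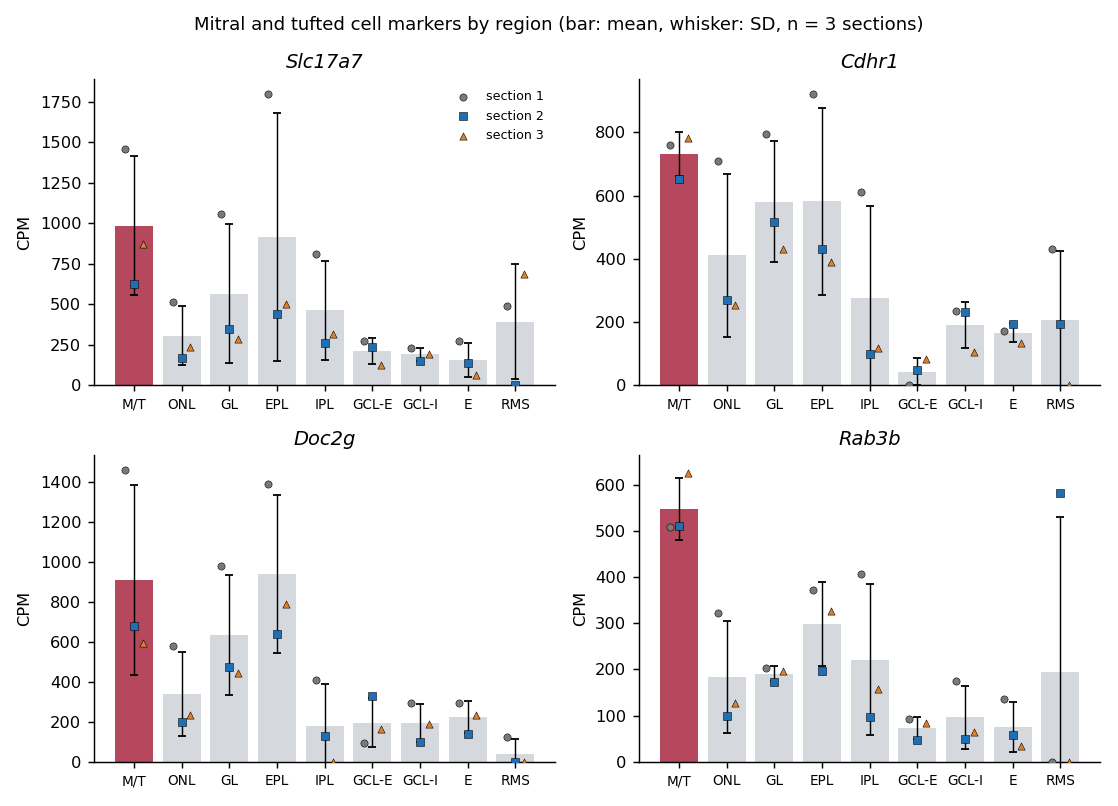
CPM of Slc17a7, Cdhr1, Doc2g and Rab3b in the mitral layer (M/T, red bar at the left) and the other 8 regions (grey); bars are means and whiskers SDs over 3 sections, and points are sections. Rab3b stands at 507 to 625 CPM in the mitral layer, whereas Doc2g averages 911 CPM there and 940 CPM in the external plexiform layer (EPL).

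Of 1996 genes with enough counts to test, 44 differed between the mitral layer and the mean of the other 8 regions (2.2%), with 38 higher (1.9%) and 6 lower (0.301%), at an edgeR adjusted p under 0.05. The median log2 fold change of all tested genes was 0.06. The higher genes were led by mitral cell markers and by neuronal genes of synapses, axons and membranes, at 1.37 to 4.14 times the mean of the other 8 and on 17 to 343 counts. Of the 38, 37 were higher in each section, and 33 had their highest mean level in the mitral layer, against 287 of all 1996 tested genes, a share that selection on this contrast raises. Higher genes in the plot of named genes were picked partly for being higher in each section, so that trait gives no separate support for them. Doc2g and Map1b were highest in the external plexiform layer, Eomes and Calb2 in the glomerular layer, and Rasgrp1 in the external granule cell layer. Without sections 1, 2 and 3 in turn, 45, 15 and 18 genes were higher, so the number rests most on sections 2 and 3. The calls of Rab3b, Gap43, Pclo, Doc2g, Sncb, Slc17a7, Cdhr1, Syt1 and Hbb-bs held whichever section was left out, and those of the other genes in the plot of named genes were lost at least once. No gene passed when spots within 5 positions of a border were left out, which left 800, 2269 and 4361 mitral layer counts, and 25 were higher when only spots within 2 positions were left out.

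The mitral and tufted cell identity list had 16 genes, of which 15 had counts in the files and 6 passed the filter, and all 6 tested members were higher. Over all tested genes 1.9% rose. A gene at low level can pass that filter through the mitral layer alone, so this count describes the tested members and gives no separate support. Without sections 1, 2 and 3 in turn, 6 of 7, 5 of 5 and 4 of 6 tested members rose. Without the rostral migratory system 5 rose, and with no section block 1 did. With spots within 5 positions of a border left out, 0 rose. Besides the 4 markers, the 6 tested members were Reln and Eomes. Reln encodes a secreted glycoprotein of neuronal positioning. Its level was 507, 510 and 625 CPM in the mitral layer, against 277, 196 and 149 CPM in the other 8, with no overlap (log2 fold change 1.55 ± 0.30, adjusted p = 5.76e-05). Reln and Rab3b had equal counts in the mitral layer of each section, 8, 18 and 20. Eomes, a T-box transcription factor of mitral and tufted cells, had 190, 198 and 219 CPM in the mitral layer and 112, 75.6 and 91.0 CPM in the other 8 (log2 fold change 1.92 ± 0.59, adjusted p = 0.0492). That call rests on 17 mitral layer counts. The ratio of mean CPM for Eomes was 2.18, and its level in the rostral migratory system was 0 CPM.

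Members of the identity list below the filter could not be tested. Tbx21, another T-box factor of these neurons, had 127, 56.6 and 187 CPM in the mitral layer on 10 counts, against 124, 27.4 and 7.98 CPM in the external plexiform layer. Shisa3 had 127, 113 and 375 CPM in the mitral layer on 18 counts and 151, 142 and 136 CPM in the external plexiform layer. In both genes section 3 was the highest of the mitral layer values. Lhx1 was at 0 in the mitral layer and Lhx5 had no counts in any region; a count of 0 limits only what this depth can show. The summed level of the list was 5709, 3822 and 4904 CPM in the mitral layer, against 2508, 1448 and 1449 CPM in the other 8.

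Genes of the presynaptic terminal were also among the higher genes. Of 24 listed synaptic vesicle and release genes 20 were tested, and 5 rose and none fell (Syt1, Snap25, Sv2b and Sncb among them). Over all tested genes 1.9% rose. The median log2 fold change of the list was 0.52, against 0.06 over all tested genes. The limit given for the identity list, that the mitral layer alone can carry a gene past the filter, holds here too. In the list 5, 3 and 3 genes rose without sections 1, 2 and 3 in turn, and with spots within 5 positions of a border left out none did and the median was -0.02. Syt1, the calcium sensor of fast vesicle fusion, had 761, 1557 and 1437 CPM in the mitral layer and 389, 958 and 771 CPM in the other 8. It was higher in each section, a condition of its naming (log2 fold change 1.0 ± 0.21, adjusted p = 0.000296). Snap25, a SNARE protein of vesicle fusion, had 4060, 4304 and 3967 CPM in the mitral layer, against 3789, 2460 and 2754 CPM in the other 8, without overlap (log2 fold change 0.61 ± 0.15, adjusted p = 0.00408). Sv2b, a vesicle membrane glycoprotein, had 507, 170 and 312 CPM in the mitral layer and 112, 48.2 and 78.9 CPM in the other 8, a ratio of means of 4.14. Sncb, a synuclein, had 698, 453 and 656 CPM in the mitral layer, against 338, 148 and 212 CPM in the other 8. Pclo encodes a scaffold of the active zone. It had 127, 849 and 843 CPM in the mitral layer and 68.8, 334 and 283 CPM in the other 8 (log2 fold change 1.40 ± 0.27, adjusted p = 5.76e-05), with section 1 far below the other sections in both groups. Vamp2, the vesicle SNARE, had 2190 ± 1399 CPM in the mitral layer and 1456 CPM in the other 8, and did not pass the test (adjusted p = 0.0796).

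**Figure D2:**
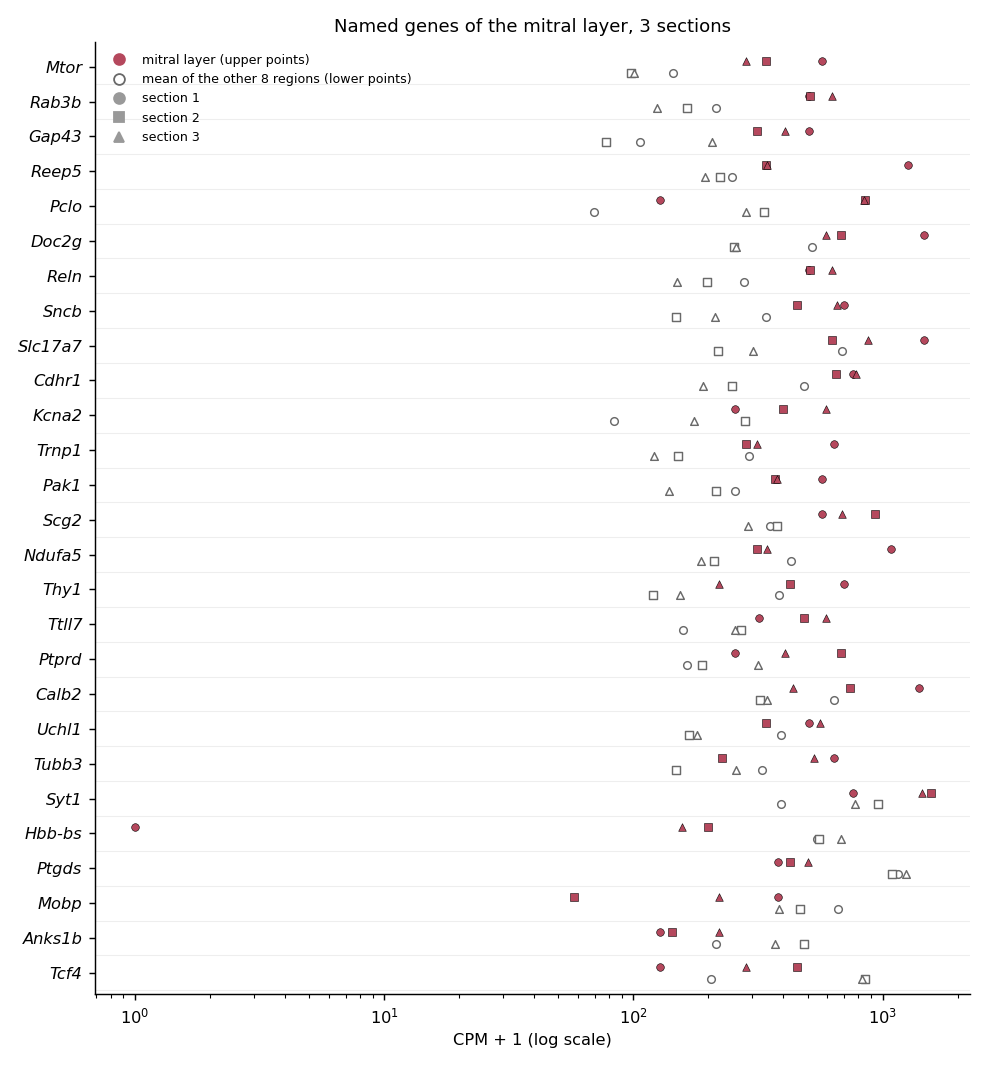
CPM + 1 on a log scale for the named higher and lower genes, ordered by ratio of means within each direction; filled points are the mitral layer and open points, just below, the mean of the other 8 regions, with a symbol per section. Pclo lies far lower in section 1 than in sections 2 and 3, and Hbb-bs had no mitral layer count in section 1.

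Growth-associated and axonal proteins also rose. Of 14 listed genes 12 were tested, 6 rose and none fell (Gap43, Stmn2, Stmn3, Map1b, Thy1 and Uchl1), where 1.9% of all tested genes rose. The median log2 fold change of the tested members was 0.73. As in the identity list, a gene at low level can pass the filter through the mitral layer alone. The count and the median thus describe the tested members and give no separate support. Of the list 6, 2 and 3 genes rose without sections 1, 2 and 3 in turn, and without the filter on low counts 2. Gap43 encodes a membrane protein of growing and plastic axons. It had 507, 311 and 406 CPM in the mitral layer, against 105, 76.4 and 206 CPM in the other 8, and each mitral layer value was above all of the others (log2 fold change 1.97 ± 0.39, adjusted p = 7.83e-05). Stmn2 and Stmn3 encode stathmins, regulators of microtubules. Stmn2 had 254, 283 and 281 CPM in the mitral layer and 98.3, 82.8 and 129 CPM in the other 8, and Stmn3 had 1269, 793 and 1031 CPM against 1008, 388 and 498 CPM. Uchl1, a ubiquitin hydrolase abundant in neurons, had 507, 340 and 562 CPM in the mitral layer, against 391, 166 and 179 CPM in the other 8. Thy1, a surface glycoprotein of projection neurons, had 698, 425 and 219 CPM in the mitral layer and 384, 119 and 153 CPM in the other 8, and did not pass without section 2 (adjusted p = 0.716).

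Map1b, a microtubule-associated protein gene, behaved differently in section 1. It had 381, 3086 and 3155 CPM in the mitral layer of sections 1, 2 and 3, against 445, 1562 and 1530 CPM in the other 8 (log2 fold change 1.11 ± 0.18, adjusted p = 1.36e-07). It was lower in the mitral layer in section 1, on 6 counts, and about 2 times as high there in sections 2 and 3. In the list of neurofilament, microtubule and motor genes only Tubb3, the neuronal tubulin gene, passed the test among 18 tested. It had 634, 227 and 531 CPM in the mitral layer and 328, 148 and 256 CPM in the other 8. The share of all tested genes that rose was 1.9%, and 1 gene is too few to set against it.

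Among voltage-gated channels and pumps, 2 of 16 tested genes rose and none fell, with a median log2 fold change of 0.42. Over all tested genes 1.9% rose. Kcna2, an axonal potassium channel, had 254, 396 and 593 CPM in the mitral layer, against 82.6, 280 and 175 CPM in the other 8 (adjusted p = 0.00580). Atp1b1, the beta subunit of the sodium and potassium pump, had 4504, 3907 and 3405 CPM in the mitral layer and 3474, 2392 and 2344 CPM in the other 8 (adjusted p = 0.0308). For each gene the mitral layer was higher in every section, a condition for naming Kcna2, although the ranges overlap. Of 6 tested GABA receptor genes 1 rose and none fell, a number too small to set against that share. None of 9 tested glutamate receptor genes passed.

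Scg2 was the single secretory granule gene among 10 tested that rose. It encodes secretogranin II, a precursor packed into dense-core granules, and had 571, 934 and 687 CPM in the mitral layer, against 352, 375 and 288 CPM in the other 8 (log2 fold change 1.13 ± 0.25, adjusted p = 0.000754). Calb2, the calcium-binding protein calretinin and also a marker of periglomerular interneurons, had 1396, 736 and 437 CPM in the mitral layer and 639, 321 and 342 CPM in the other 8 (adjusted p = 0.00408). The mitral layer was higher in each section for both genes, which the rule for naming them required. Calb2 was the only gene to pass among 16 tested calcium and calmodulin genes, and among 3 tested periglomerular genes. The share of all tested genes that rose was 1.9%, and 1 gene per list is too few to set against it.

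The remaining named genes belong to no list. Mtor, the kinase of a growth and nutrient pathway, had 571, 340 and 281 CPM in the mitral layer and 143, 96.8 and 99.5 CPM in the other 8 (log2 fold change 1.70 ± 0.38, adjusted p = 0.00110). Reep5, a protein that shapes endoplasmic reticulum, had 1269, 340 and 344 CPM in the mitral layer, against 248, 221 and 193 CPM in the other 8. Its call rests on section 1, without which the adjusted p was 0.306. Ptprd, a receptor tyrosine phosphatase of synapses, had 254, 680 and 406 CPM in the mitral layer and 163, 188 and 315 CPM in the other 8. Ttll7, an enzyme that adds glutamate to tubulin, had 317, 481 and 593 CPM in the mitral layer, against 157, 269 and 256 CPM in the other 8. Pak1, a kinase of the actin cytoskeleton, had 571, 368 and 375 CPM in the mitral layer and 255, 213 and 137 CPM in the other 8. Each of these was higher in every section, which the rule for naming them required. Ndufa5, a subunit of respiratory complex I, had 1078, 311 and 344 CPM in the mitral layer, against 427, 209 and 185 CPM in the other 8. Trnp1 had 634, 283 and 312 CPM in the mitral layer and 290, 151 and 120 CPM in the other 8, on 10 counts in each section. Pak1, Ndufa5, Trnp1 and Tubb3 each lost their call whichever section was left out.

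The 6 lower genes were of blood, glia and other cells. Hbb-bs, an adult beta globin gene, had 0, 198 and 156 CPM in the mitral layer, against 543, 555 and 679 CPM in the other 8, with no overlap (log2 fold change -1.88 ± 0.39, adjusted p = 0.000195). The summed level of 5 blood genes was 127, 566 and 750 CPM in the mitral layer and 1273, 1391 and 1429 CPM in the other 8. Mobp, a myelin gene, had 381, 56.6 and 219 CPM in the mitral layer and 664, 466 and 383 CPM in the other 8. It was lower in each section, and was among the 2 of 7 tested oligodendrocyte genes that passed, where 0.301% of all tested genes fell. The list had a median log2 fold change of -0.90, and none of it passed without section 2. Ptgds, a prostaglandin synthase gene, had 381, 425 and 500 CPM in the mitral layer, against 1147, 1088 and 1243 CPM in the other 8 (log2 fold change -1.09 ± 0.27, adjusted p = 0.00485). The other 8 include the olfactory nerve layer, where Ptgds averaged 4092 CPM. Tcf4, a transcription factor gene, had 127, 453 and 281 CPM in the mitral layer and 203, 845 and 822 CPM in the other 8. Anks1b, a postsynaptic scaffold gene, had 127, 142 and 219 CPM in the mitral layer, against 214, 482 and 368 CPM in the other 8 (adjusted p = 0.0492). Ptgds and Anks1b lost their calls whichever section was left out, and Anks1b kept its call in 1 of 12 alternatives. Without sections 1, 2 and 3 in turn, 4, 1 and 4 genes were lower.

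Transcripts of other cells were plentiful in the mitral layer. Gad1, the GABA-synthesising enzyme of granule and periglomerular cells, had 2220, 2095 and 1624 CPM in the mitral layer, and averaged 1980 CPM there and 2002 CPM in the other 8 (adjusted p = 0.882). None of 10 tested granule cell genes passed in either direction, and their summed level was 6597, 7079 and 6403 CPM in the mitral layer, against 7722, 7065 and 7156 CPM in the other 8. Granule cell transcripts in the layer were thus near the average of the other regions, which differ widely. The summed level averaged 5053 CPM in the external plexiform layer, 6693 in the mitral, 7833 in the internal plexiform and 10328 in the internal granule cell layer. Against the glomerular layer 2 of these 10 genes rose by edgeR, Pcp4 (adjusted p = 0.00747) and Camk2a (0.0427), where 1.3% of all tested genes rose. No gene passed among 15 tested astrocyte, 30 respiratory chain and energy, 69 ribosomal protein, 2 endothelial and mural, 4 olfactory sensory axon and 3 immediate early genes, and no microglial gene was tested. Of 5 tested olfactory ensheathing glia genes 1 fell, and of 5 neuroblast genes 1 rose, Tubb3. Over all tested genes 0.301% fell and 1.9% rose. The ribosomal protein genes had a median log2 fold change of -0.29, with 14 of 69 above 0. How far transcripts of neighbouring cells enter any of these comparisons was not tested.

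**Figure D3:**
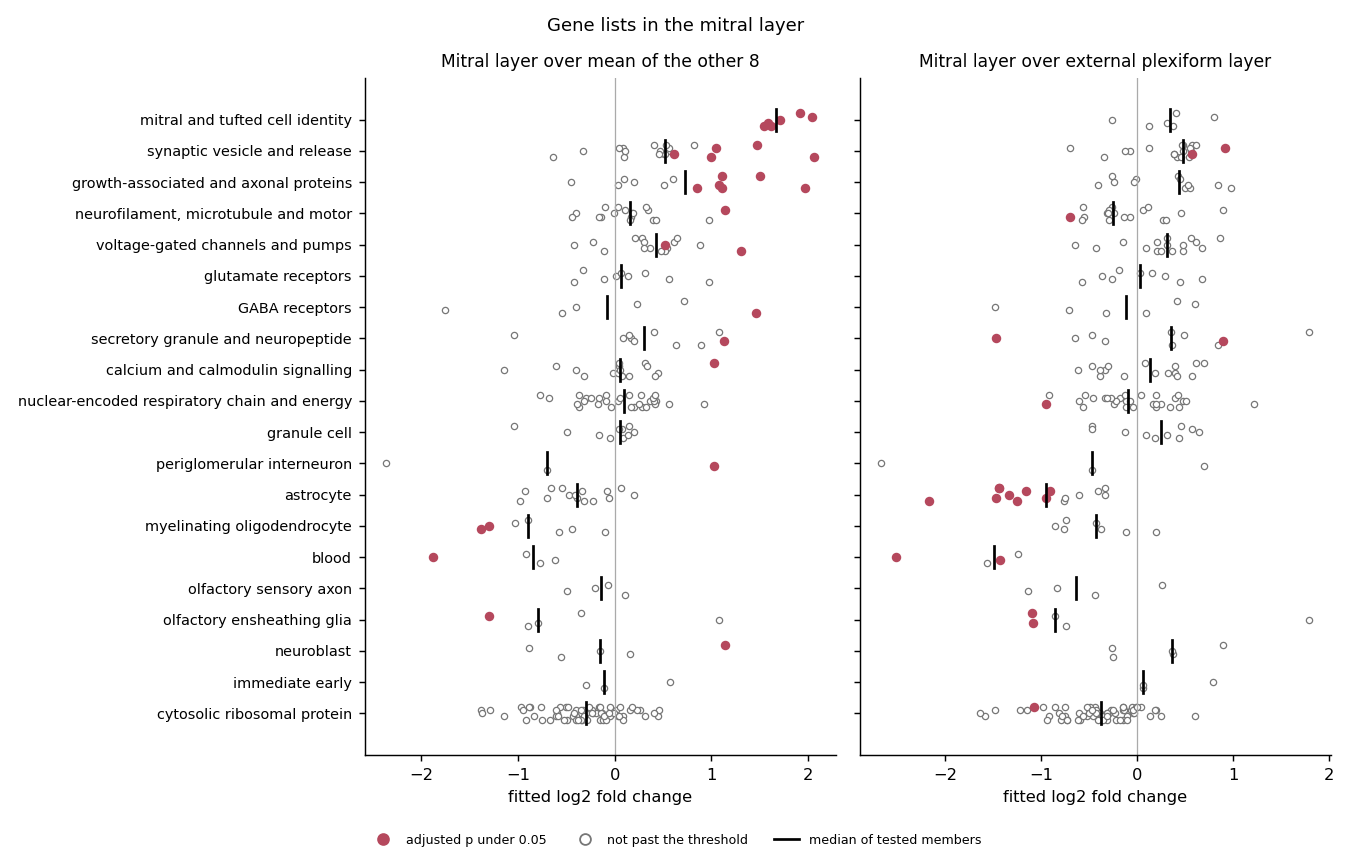
Fitted log2 fold change of each tested gene, by list with at least 3 tested genes, for the mitral layer over the mean of the other 8 regions (left) and over the external plexiform layer (right); red points passed an adjusted p of 0.05 and black lines are medians. All 6 tested identity genes are red at the left and none at the right, while 9 astrocyte genes are red below 0 at the right.

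The external plexiform layer, which touches the mitral layer on its outer side, holds the dendrites of mitral and tufted cells and many astrocyte processes. Against it 64 of 1996 genes differed (3.21%), 4 higher (0.2%) and 60 lower (3.01%) in the mitral layer. This comparison and the next ones share the mitral layer sums with the one above, so they are not independent of it. Scg2 and Snap25 were among the 4 higher genes. Scg2 had 571, 934 and 687 CPM in the mitral layer, against 316, 421 and 319 CPM in the external plexiform layer, with no overlap (log2 fold change 0.89 ± 0.27, adjusted p = 0.0307). Snap25 had 4060, 4304 and 3967 CPM in the mitral layer, against 3866, 2157 and 1899 CPM in the external plexiform layer (adjusted p = 0.0474).

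Astrocyte genes were prominent among those lower than in the external plexiform layer. Of 16 listed genes 15 were tested, 9 fell and none rose, where 3.01% of all tested genes fell. The median log2 fold change of the list was -0.94, against -0.04 over all tested genes. Slc1a2, the main glutamate transporter of astrocytes, had 571, 1840 and 1843 CPM in the mitral layer, against 578, 4455 and 3871 CPM in the external plexiform layer (log2 fold change -1.25). It was level in section 1 and less than 0.5 times as high in the mitral layer in sections 2 and 3. Slc1a3, the related transporter, had 381, 991 and 562 CPM in the mitral layer and 440, 1916 and 2211 CPM in the external plexiform layer. Glul, which makes glutamine from glutamate, had 507, 1048 and 1968 CPM in the mitral layer, against 1953, 3153 and 3001 CPM in the external plexiform layer. Gja1, a gap junction protein gene, had 0, 113 and 93.7 CPM in the mitral layer and 165, 356 and 407 CPM in the external plexiform layer, without overlap (log2 fold change -2.16). Aldoc, a glycolytic enzyme gene of astrocytes, had 444, 764 and 531 CPM in the mitral layer, against 1197, 1056 and 942 CPM in the external plexiform layer. Sparcl1, Aqp4 and Mt1 also passed, with Sparcl1 slightly higher in the mitral layer of section 1. The summed level of the list was 15224, 12034 and 12963 CPM in the mitral layer, against 18076, 22699 and 23049 CPM in the external plexiform layer. All 15 tested genes lay below 0 under both other scalings, and 7 passed under each. Without sections 1, 2 and 3 in turn, 8, 1 and 3 genes of the list fell.

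**Figure D4:**
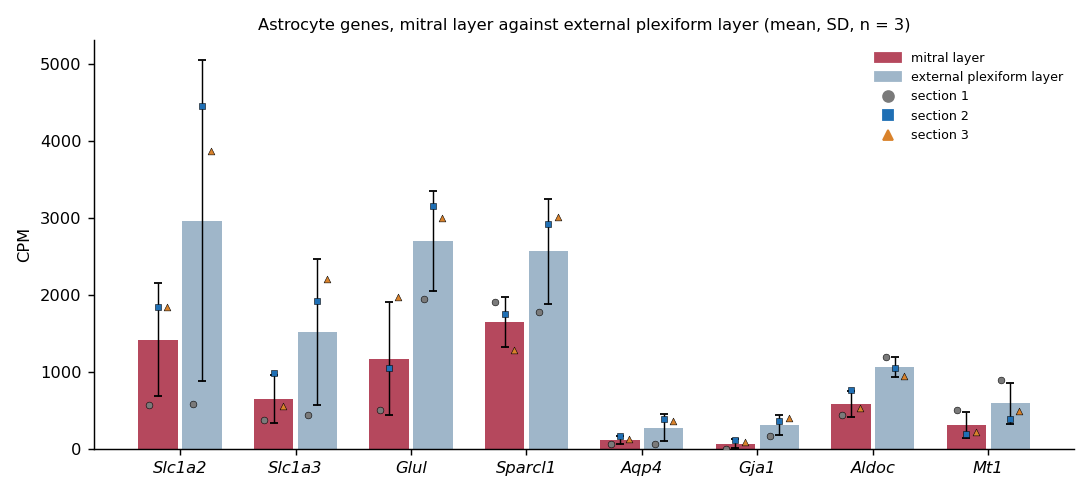
CPM of astrocyte genes that were lower in the mitral layer (red) than in the external plexiform layer (blue); bars are means, whiskers SDs over 3 sections, and points are sections. In Slc1a2 the sections 2 and 3 stand at 1840 and 1843 CPM against 4455 and 3871 CPM, while section 1 is alike in both layers at 571 and 578 CPM.

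By the size of the fold change, the genes lowest against the external plexiform layer were Itgb8, Prex1, Hbb-bs, Kcnj10 and Gstm1. Kcnj10, the inward rectifier potassium channel of astrocytes, had 0, 227 and 156 CPM in the mitral layer, against 165, 870 and 798 CPM in the external plexiform layer (log2 fold change -2.36 ± 0.37, adjusted p = 6.42e-08). Gstm1, a glutathione transferase gene, had 127, 56.6 and 62.5 CPM in the mitral layer and 316, 279 and 311 CPM in the external plexiform layer. Itgb8, an integrin subunit gene, and Prex1, an exchange factor for Rac, had 3 mitral layer counts each. Cck, the neuropeptide cholecystokinin of superficial tufted cells, had 444, 142 and 156 CPM in the mitral layer, against 880, 367 and 471 CPM in the external plexiform layer (adjusted p = 0.00198). It was lower in the mitral layer in every section. Of the 60 lower genes 13 carried Gm symbols, which stand for gene models without a name, against 68 of the 1996 tested. With library sizes alone in place of TMM scaling, which put the median of all genes at 0.15, the split was 31 higher and 44 lower, and with RLE scaling 13 higher and 50 lower. Without sections 1, 2 and 3 in turn, 22, 0 and 0 genes were higher and 67, 4 and 16 lower.

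Few genes separated the mitral layer from the internal plexiform layer, the thin inner neighbour through which mitral cell axons pass. Of 1996 genes 4 differed (0.2%), 3 higher (0.15%) and 1 lower (0.0501%). Doc2g had 1459, 680 and 593 CPM in the mitral layer, against 407, 131 and 0 CPM in the internal plexiform layer (log2 fold change 2.30 ± 0.41, adjusted p = 4.75e-05). Cdhr1 had 761, 651 and 781 CPM in the mitral layer, against 610, 97.9 and 119 CPM in the internal plexiform layer (log2 fold change 1.57 ± 0.38, adjusted p = 0.0201). Map1b had 381, 3086 and 3155 CPM in the mitral layer and 366, 1207 and 1106 CPM in the internal plexiform layer (log2 fold change 1.33 ± 0.26, adjusted p = 0.000214). Neither Doc2g nor Cdhr1 overlapped between the layers, and Map1b differed in sections 2 and 3 only. Mobp, the lower gene, had 381, 56.6 and 219 CPM in the mitral layer, against 488, 750 and 711 CPM in the internal plexiform layer (log2 fold change -1.80 ± 0.42, adjusted p = 0.0146). With RLE scaling the split was 7 higher and 1 lower, and without sections 1, 2 and 3 in turn 6, 1 and 1 genes were higher and 7, 0 and 0 lower. The edgeR test gave 167 genes at an unadjusted p under 0.05, and DESeq2 called 6.

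Against the glomerular layer, where the apical dendrites of mitral cells meet sensory axons, 85 of 1996 genes differed (4.26%), 26 higher (1.3%) and 59 lower (2.96%) in the mitral layer. The higher genes with the largest fold change were Syt6, Mtor, Kalrn, Abhd8 and Rab3b, among those with at least 30 counts in both layers together. Rab3b had 507, 510 and 625 CPM in the mitral layer, against 204, 172 and 197 CPM in the glomerular layer, with no overlap (log2 fold change 1.37 ± 0.33, adjusted p = 0.00387). Kalrn, an exchange factor of dendritic spines, had 127, 453 and 437 CPM in the mitral layer and 102, 113 and 151 CPM in the glomerular layer. Syt6, a synaptotagmin gene, had 254, 368 and 125 CPM in the mitral layer, against 81.6, 66.2 and 52.9 CPM in the glomerular layer. Abhd8 had 698, 198 and 219 CPM in the mitral layer and 163, 79.4 and 90.8 CPM in the glomerular layer. All of these were higher in the mitral layer in each section. Slc17a7 also passed (adjusted p = 0.0436), while Doc2g (0.545) and Cdhr1 (0.681) did not.

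The 5 genes lowest against the glomerular layer were Nxph1, Prex1, S100a5, Gng13 and Hbb-bs. S100a5, a calcium-binding protein gene of olfactory sensory neurons, had 0, 56.6 and 125 CPM in the mitral layer, against 245, 291 and 424 CPM in the glomerular layer (log2 fold change -2.33 ± 0.52, adjusted p = 0.00101). The same neurons make Gng13, which encodes a G protein gamma subunit; it had 63.4, 56.6 and 31.2 CPM in the mitral layer and 224, 172 and 265 CPM in the glomerular layer. Nxph1, a secreted neurexin ligand, had 1 mitral layer count in all, against 211 ± 51.0 CPM in the glomerular layer. None of these values overlapped between the layers. Of 15 tested astrocyte genes 8 fell and none rose, where 2.96% of all tested genes fell. Without sections 1, 2 and 3 in turn, 6, 0 and 1 of the list fell. With RLE scaling the split was 52 higher and 57 lower, and with library sizes alone 60 higher and 45 lower. Without sections 1, 2 and 3 in turn, 50, 0 and 1 genes were higher and 61, 5 and 8 lower.

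Within the mitral layer, spots nearer to the external plexiform layer were set against spots nearer to the internal plexiform layer, with ties given to the inner side. The outer side held 7792, 18518 and 15817 counts in sections 1, 2 and 3 and the inner side 7973, 16800 and 16198, enough to test 178 genes. Of these 1 was higher on the outer side (0.562%), Map1b, and none was lower by edgeR, with 15 genes at an unadjusted p under 0.05 and none called by DESeq2. Map1b had 128, 4644 and 4615 CPM on the outer side, against 627, 1369 and 1729 CPM on the inner side (log2 fold change 1.42 ± 0.27, adjusted p = 0.00641). Sections 2 and 3 were higher outside, whereas section 1 went the other way on 1 and 5 counts. The call was lost with RLE scaling (adjusted p = 0.621) and without section 2 (0.690) or section 3 (0.897), and held for the outermost against the innermost part of the layer (0.00712). Slc17a7 had 1540, 864 and 1454 CPM on the outer side and 1380, 357 and 309 CPM on the inner side, higher outside in each section but short of the threshold (log2 fold change 1.16 ± 0.37, adjusted p = 0.318). Gad1 had 1925, 1836 and 1201 CPM on the outer side, against 2508, 2381 and 2037 CPM on the inner side. It was lower outside in each section but short of the threshold (adjusted p = 0.520). Reln had 642, 702 and 885 CPM on the outer side and 376, 298 and 370 CPM on the inner side, and was also short of the threshold (adjusted p = 0.520).

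Across the borders the profiles of single genes differed in shape. In the bins around the mitral layer, from outside inwards, mean Map1b was 2534 CPM at 6 to 10 positions into the external plexiform layer and 3757 at 1 to 5. It was 3129 on the outer and 1242 on the inner side of the mitral layer, and 799 in the first 5 positions of the internal plexiform layer. Its drop thus lay inside the mitral layer as drawn, in sections 2 and 3. Slc1a2 differed in shape between the sections. In section 2 it had 3518 CPM in the nearest external plexiform bin, 1620 and 2083 CPM on the outer and inner sides of the mitral layer, and 4043 CPM in the nearest internal plexiform bin, so both sides lay below their neighbours. In section 3 the same bins had 2207, 1328, 2346 and 1801 CPM, and the outer side alone was low. In section 1 they had 332, 642, 502 and 597 CPM, with no dip on the outer side. Gad1 was higher on the inner than on the outer side in each section, though it did not pass the test above. The inner side had 2508, 2381 and 2037 CPM in sections 1, 2 and 3, against 4275, 1826 and 2035 CPM in the nearest internal plexiform bin. That nearest bin was thus higher in section 1 alone. Further in, the external granule cell layer had 2488, 3017 and 2833 CPM, above the inner side in sections 2 and 3. Gap43 had 1027, 324 and 443 CPM on the outer side in sections 1, 2 and 3, against 0, 298 and 370 CPM on the inner side, and 332, 113 and 631 CPM in the nearest external plexiform bin. Its highest mean, on the outer side, thus came from section 1, and in section 3 the external plexiform bin was higher. Scg2 had 385, 972 and 885 CPM on the outer side, against 332, 397 and 236 CPM in the nearest external plexiform bin, higher in each section. These profiles were not tested beyond the comparison of outer and inner sides.

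**Figure D5:**
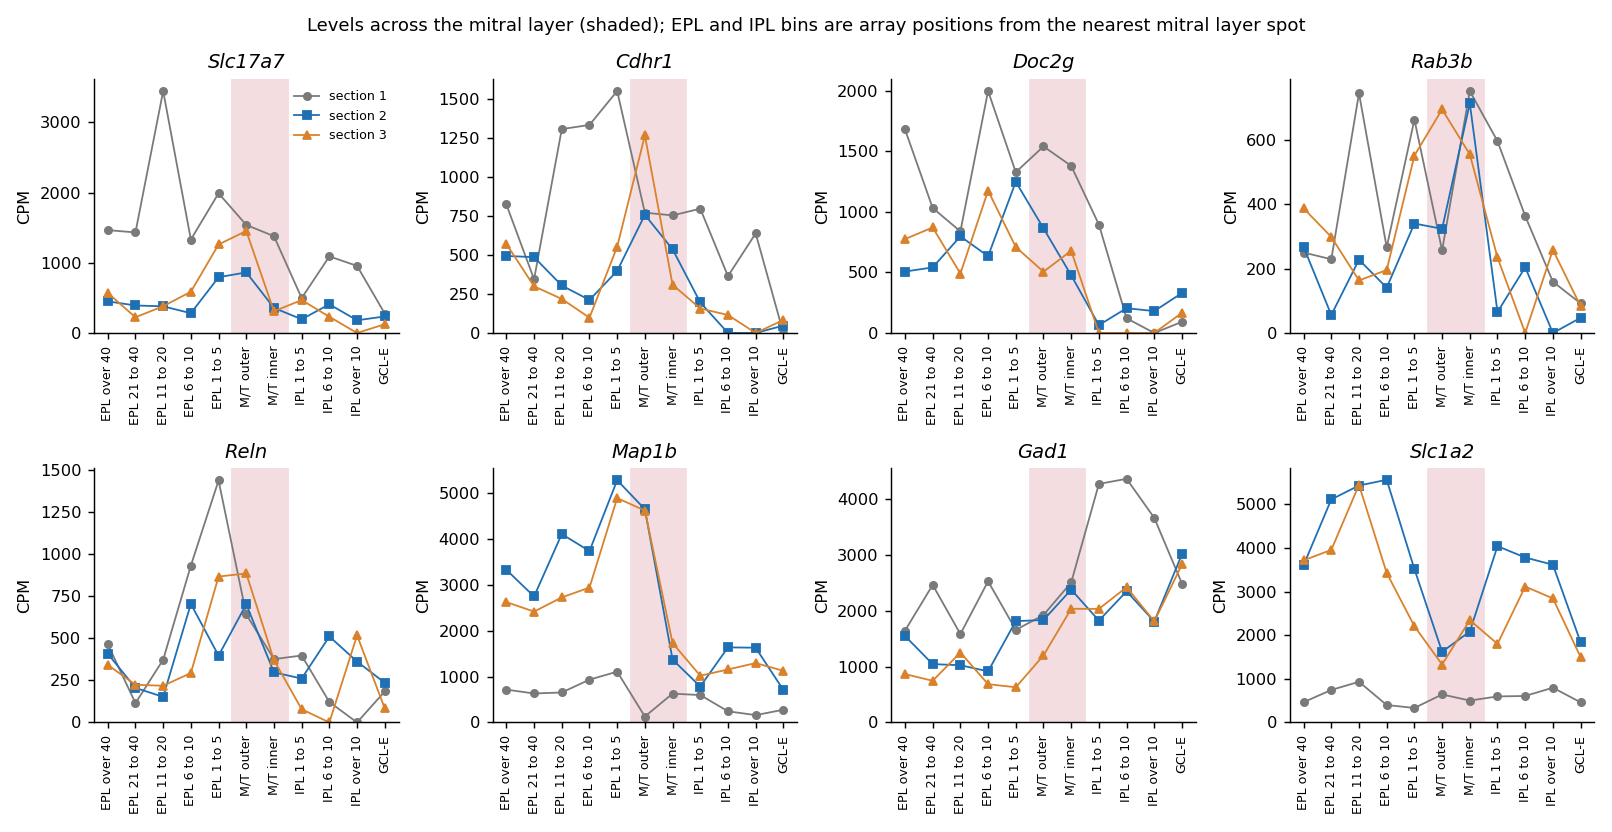
CPM of 8 genes in bins from the outer external plexiform layer (EPL), through the outer and inner sides of the mitral layer (M/T, shaded), to the internal plexiform layer (IPL) and external granule cell layer (GCL-E); bins are array positions from the nearest mitral layer spot, and each line is a section. Map1b falls inside the shaded band in sections 2 and 3, and Slc1a2 is low on both of its sides in section 2 and on the outer side in section 3. Gad1 is higher on the inner than the outer side of the band in all 3, but did not pass the test of outer against inner sides.

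The genes whose pattern was most like the 4 markers were found by Pearson correlation of log2(CPM + 10) with the markers' mean over the 27 sums of a region and a section, after removal of section means, among 3587 genes. They were Sept3 (r = 0.82), Madd (0.82), Trp53i11 (0.81), Ppp2r3a (0.81) and Grin2c (0.80). The sums share sections and depth, and these genes had only 8 to 20 counts in the mitral layer. All but Trp53i11 had 0 CPM in the rostral migratory system, whose smallest sum held 1456 counts, and the weight of those zeros in r was not tested. Sept3 and Trp53i11 had their highest mean in the external plexiform layer and ranked 3 in the mitral layer. Sept3, a septin gene, had 63.4, 170 and 406 CPM in the mitral layer, against 57.7, 174 and 194 CPM in the other 8. Grin2c, an NMDA receptor subunit gene, had 190, 84.9 and 125 CPM in the mitral layer and 101, 49.6 and 45.7 CPM in the other 8, higher in each section. Each marker correlated with the mean of the other 3 at 0.40 for Slc17a7, 0.69 for Cdhr1, 0.70 for Doc2g and 0.49 for Rab3b.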

How the data were processed

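The authors deposited, for each of 3 sections, raw transcript counts per spot and gene, and a table giving each spot its array position, pixel position and named region. The counts are whole numbers, and whether they count unique molecules, the aligner and counter, and how the regions were drawn, are steps not given in the sources used here, whereas the build is mm10, per the submitters' processing notes. Pixel positions joined 100% of entries to a region. Counts without a gene name (112, 497 and 405) and spots of unknown region were left out. Counts were summed into 27 sums of 1456 to 182699 counts, so small sums limit the precision, and were tested with edgeR 4.0.16 (R 4.3.3; quasi-likelihood, TMM, filterByExpr by region with a minimum count of 10, section as block, Benjamini-Hochberg adjustment over all 1996 tested genes, threshold 0.05). Without the section block 2 genes were higher and 0 lower against the other 8. Each region counted equally in the mean of the other 8, and outer and inner spots were tested in the same way. The sums of a section are paired because they come from the same tissue. CPM divides by the total of a sum, and means and SDs are over sections. Tests were also run on simulated counts with the same fold change in each section, which cannot show the effect of differences between sections. Python 3.11.15, scipy 1.17.1 and matplotlib 3.10.9 were used. Gene positions are from GENCODE M21, which held 99.8% of 19621 symbols.

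Named genes against the other 8 were the 24 higher genes with the largest ratio among those with at least 30 mitral layer counts and higher in each section, and every lower gene; against a neighbour, the 5 largest fold changes in each direction with at least 30 counts in both layers together; a few genes that the rule names are not reported here. Other higher genes and Cck are named as list members or single exceptions. The 22 gene lists and the markers were chosen with earlier results of these data known. Overlapping genes, counted without stated strand, had at most 2 counts in the mitral layer beside any of the named genes examined. Alternatives were RLE scaling, library sizes alone, no filter, DESeq2 1.42.0, no section block, each section left out, border spots within 5 positions left out, joining by spot name, no rostral migratory system, and the outermost against the innermost part; leaving out spots within 2 positions was added after the data were seen.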

Additional observations from a re-analysis of the deposited data

How the results depend on the processing

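The higher and lower counts against the other 8 (38 and 6) became 23 and 3 with no filter, 2 and 0 with no section block, 0 and 0 without spots within 5 positions of a border (which leaves 800, 2269 and 4361 mitral layer counts in sections 1, 2 and 3), and 15 to 45 and 1 to 4 with a section left out. Against the external plexiform layer (4 and 60), the higher count was 13 with RLE, 31 with library sizes alone, 0 with no filter and 13 with DESeq2, which gave 29 lower. Both counts were 0 with no block. Without border spots the higher count was 0, or 7 when 2 positions were left out, and with a section left out the counts were 0 to 22 and 4 to 67. Against the internal plexiform layer (3 and 1), the higher count was 7 with RLE and 5 with DESeq2, and the lower count was 0 with no filter and 6 when joined by spot name. Both were 0 with no block and without border spots at either distance, and 1 to 6 and 0 to 7 with a section left out. Against the glomerular layer (26 and 59), the higher count was 52 with RLE, 60 with library sizes alone, 0 with no filter and 40 with DESeq2, which gave 26 lower. No block gave 0 and 0, leaving out border spots 0 and 27 (5 positions) or 10 and 32 (2 positions), and leaving out a section 0 to 50 and 5 to 61. With border spots within 2 positions left out, 25 genes were higher than the other 8. The outer against inner count (1) was 0 with RLE, library sizes alone, DESeq2 and no block, and 0 to 1 with a section left out. The ratio of counts per 100 spots was 1.18 over spots with counts and 1.18 to 1.36 with a section left out. With spots within 5 positions left out the log2 fold change turned to -0.79 for Reep5, -0.20 for Sncb and -0.15 for Calb2 against the other 8, to -0.33 for Snap25 against the external plexiform layer, and to -0.70 for Kalrn against the glomerular layer. The cause was not tested, beyond the fewer counts that these alternatives leave. Over the named genes of all comparisons, 10, 38 and 31 no longer passed without sections 1, 2 and 3 in turn, and none reversed.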
